A study of Drosophila melanogaster with 10 samples.

Results

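Reads on the annotated transposable element insertions of the Drosophila melanogaster genome were examined in RNA sequencing libraries of S2 cells, an established embryonic line with hemocyte (blood cell) character. The insertions are the rows of the deposited expression tables whose identifiers mark a natural transposon (FBti) or a further annotated element (RR). There were 5578 such rows, 5416 FBti and 162 RR, among 23932 features in the first set of libraries, and 1671 of them were listed among the 13470 features of the second set. The first set held H2A.Z KD cells with Ac WT, Luc KD cells with Ac R29G, and Luc KD cells with Ac WT. The second set held Arp6 KD cells with Ac WT and Luc KD cells with Ac WT. KD is a knockdown by double-stranded RNA, Luc KD is the control knockdown, Ac is the proneural transcription factor Achaete in its wild-type (WT) or R29G form, and every library, controls included, also received Da, the partner of Ac. Each of the 5 groups had 2 libraries, and the labels do not say whether they came from separate cultures, so the p-values below reflect library-to-library spread that may be technical in part or whole. In the first set, A and B name the deposited table that holds a library, and each table holds 1 library of every group.

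Transposable elements are mobile DNA that makes up much of the fly's heterochromatin. LTR retrotransposons such as copia, 17.6, 297 and the gypsy group are copied through RNA and carry long terminal repeats; non-LTR retrotransposons such as Doc and R2 are copied through RNA without them; DNA transposons such as pogo move by excision; and INE-1 is an old, short Helitron-like element with very many copies. HeT-A, TART and related non-LTR elements are the telomeres of this species, since fly chromosome ends are kept by their repeated insertion in place of telomerase repeats. In somatic cells such elements are silenced mainly by small interfering RNAs bound to AGO2, and in the ovary by piRNAs bound to Piwi, Aub and AGO3. H2A.Z, encoded in flies by His2Av, is a histone variant that also stands in for the damage-responsive H2A.X, and Arp6 belongs to the remodelling complex that replaces canonical H2A with H2A.Z.

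Element families were taken from the names of the insertions, which the BDGP6 annotation gave for 5576 of the 5578; 5554 could be put in 1 of 127 families and 24 could not. By class, 2235 insertions were INE-1, 1386 were LTR retrotransposons, 1086 were non-LTR retrotransposons, 831 were DNA transposons and 16 were unclassified. Copies of a family share sequence, and the authors' rule for reads that match several copies is unknown (not given in the sources used here). A count on 1 insertion can therefore include reads of its sister copies, and family sums are less open to this than single insertions. Positions and chromosomes given below are those of the BDGP6 annotation. Whether S2 cells carry these copies at those places was not tested, so a change on a copy is not placed at a locus of these cells. Whether strand was used in counting is also not given, so reads of an insertion inside a gene cannot be told apart from those of its host gene.

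The libraries held between 24500413 and 33712374 reads in the first set and between 9396318 and 10608470 in the second. Values below are normalised read counts, which are recovered reads divided by 1 factor per library, and log2 differences were taken after adding 1 to each value, which makes changes of low values look smaller. The knockdown target His2Av had 1713 and 795 normalised reads in H2A.Z KD cells (A and B), against 6484 and 5659 in Luc KD cells. Arp6 had 386 and 96.5 normalised reads in Arp6 KD cells (replicates 1 and 2), against 483 and 438 in Luc KD cells, so the library labelled Arp6 KD replicate 1 held most of the control level of its target. The summed level of 7 hemocyte marker genes lay between 214898 and 253522 in H2A.Z KD cells, between 153872 and 190748 in Ac R29G cells and between 157973 and 181745 in Luc KD cells. The summed level of the ovary and germline marker list lay between 3244 and 4041 in H2A.Z KD, between 2754 and 3056 in Ac R29G and between 2610 and 3059 in Luc KD cells. Most of it came from bam, at 1827 and 2152 in H2A.Z KD against 1598 and 1966 in Luc KD, and from fs(1)Yb. The latter, also on the piRNA list below, had 1384 and 1865 in H2A.Z KD against 979 and 1080 in Luc KD. In these libraries osk lay between 13.2 and 36.2 and the follicle marker tj between 0 and 2.27, and nos was not listed. In the second set the hemocyte list lay between 86211 and 87600 in Arp6 KD and between 70390 and 70853 in Luc KD cells, and the ovary and germline list between 1274 and 1301 in Arp6 KD and between 1016 and 1174 in Luc KD cells. The part of these marker shifts in the results below was not tested.

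Insertions took a small share of the reads, and that share was concentrated in few elements. They held 0.288% and 0.299% of all reads in H2A.Z KD cells, 0.270% and 0.277% in Ac R29G cells and 0.276% and 0.269% in the Luc KD cells of the first set. In the second set the share was 0.225% and 0.236% in Arp6 KD cells and 0.234% and 0.224% in Luc KD cells. The H2A.Z KD mean of 0.294% was 0.0216 percentage points above the Luc KD mean of 0.272%, with no overlap between the libraries, and the exact two-sided permutation test gave p = 0.333, the smallest value that 2 libraries against 2 can give. For Ac R29G and for Arp6 KD the exact two-sided permutation p was 0.667. Counting error alone is small at these depths, since the 494874 insertion reads of the first set and the 92408 of the second stand behind the shares.

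Of the 5578 insertions, 3159 had at least 1 read in the first set and 2419 had none; 1747 reached a mean of 1 normalised read, 645 a mean of 10, 114 a mean of 100 and 10 a mean of 1000. Tests used features with a mean of at least 1 over all libraries of the set, which left 1747 insertions and 121 families in the first set and 1107 insertions and 111 families in the second. The 121 and the 111 each count, as a family, the sum of the insertions that could not be put in a family. The insertion with the most reads held 15.3% of all insertion reads, the top 10 held 46.8%, and 14 insertions held 50%. Among families, the top 3 held 39.0% and the top 20 held 86.0%. LTR retrotransposons held 72.5% of the insertion reads, non-LTR retrotransposons 13.5%, DNA transposons 7.31% and INE-1, the most numerous family, 5.86%.

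The family with the most reads was the LTR retrotransposon 1731, with 16.0% of the insertion reads. Nearly all of it, 95.4%, lay on a single copy, 1731{}2219, at 2R:6346949-6351596 (BDGP6), which also had the most reads per kilobase (2689) among the 15 insertions with the highest mean. The second family, copia, with 13.7%, was spread over 39 copies, the strongest of which held 31.5% of the family. The third, gypsy5, with 9.23%, was again 1 copy: gypsy5{}103 at X:11194484-11201847 held 99.8% of its family and 1026 reads per kilobase. The DNA transposon pogo had the same form, with 96.2% of its reads on pogo{}4759 at 2L:21539460-21540930, second in reads per kilobase (1479) among those 15 insertions. INE-1 was the opposite: 1132 of its 2235 copies had a read, and the strongest copy held 3.8% of the family. Thus for 1731, gypsy5 and pogo a change of the family is a change of reads on 1 annotated copy, while for copia and INE-1 it is a sum over many.

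**Figure D1:**
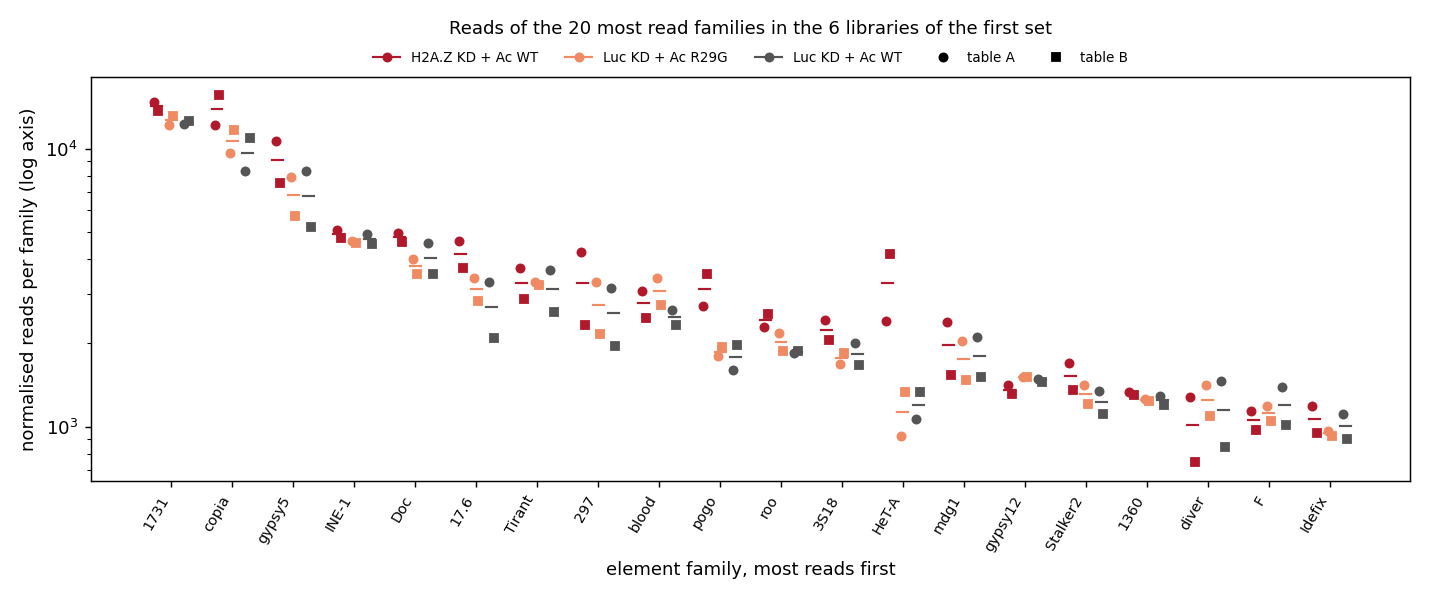
Normalised reads per library (log axis) of the 20 element families with the highest mean in the first set, with H2A.Z KD, Ac R29G and Luc KD libraries as separate points. The values span from 1731, at 12288 to 14698 in H2A.Z KD and Luc KD cells, down to much weaker families, and the H2A.Z KD points of pogo and HeT-A lie above those of both other groups.

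H2A.Z KD against Luc KD asked which elements change in level when the histone variant is depleted. The clearest gain was in the telomeric element HeT-A, whose 26 annotated copies, 14 of them with a read, summed to 2398 and 4183 normalised reads in H2A.Z KD cells, against 1068 and 1328 in Luc KD cells. Both knockdown libraries lay above both controls, and the Ac R29G libraries, at 925 and 1334, did not stand apart from the controls. The means were 3291 ± 1262 in H2A.Z KD and 1198 ± 184 in Luc KD (SD, n = 2 each), 2.75-fold higher, with a log2 difference of 1.41 (SE 0.28, adjusted p = 0.0434 by limma with Benjamini-Hochberg adjustment over all features of the fit). With the deposited table as a block, which compares libraries within each table, the adjusted p by limma was 2.26e-08. A feature is called here when its adjusted p is under 0.05. Leaving out any 1 of the 6 libraries without the block ended the call, with log2 differences between 1.01 and 1.81 and adjusted p by limma between 0.0509 and 0.163.

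The reads that HeT-A gained were counted mostly on copies annotated at the end of chromosome 4, on the minus strand and outside genes. The strongest, HeT-A{}6262 at 4:1314342-1320140, had 815 and 1420 normalised reads in H2A.Z KD cells, against 342 and 545 in Luc KD cells, a log2 difference of 1.31 (limma adjusted p = 0.0906, with the block 6.03e-08). HeT-A{}6268 at 4:1301834-1307750 had 639 and 1152 in H2A.Z KD, against 175 and 273 in Luc KD (log2 1.97, SE 0.37, limma adjusted p = 0.0407). HeT-A{}6276 at 4:1282540-1288109 had 246 and 502 in H2A.Z KD, against 60.4 and 87.5 in Luc KD (log2 2.26, limma adjusted p = 0.0447). In each of these copies both H2A.Z KD libraries exceeded both Luc KD libraries. Weaker copies of the same chromosome end differed the same way. HeT-A{}6278 at 4:1278430-1281474 had 435 and 652 in H2A.Z KD, against 280 and 256 in Luc KD, and HeT-A{}6270 at 4:1295016-1296989 had 163 and 305 in H2A.Z KD, against 112 and 94.6 in Luc KD, both called by limma only with the block (adjusted p = 6.03e-05 and 0.00101). HeT-A{}6274 at 4:1289099-1294943, which was chosen after its values were seen, was called at a low level, 14.7 and 16.0 in H2A.Z KD against 2.55 and 2.03 in Luc KD (log2 2.32, limma adjusted p = 0.0477). The one other tested copy of this chromosome, HeT-A{}4617 at 4:1277577-1278360, had 0 and 0 in H2A.Z KD, against 5.11 and 0 in Luc KD, and was not called.

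The copies annotated at the tip of X, on the plus strand, were weaker and mixed. HeT-A{}4795 at X:109756-114008, the strongest of them, had 72.5 and 81.1 normalised reads in H2A.Z KD cells, against 79.2 and 63.0 in Luc KD cells, so the groups overlapped (log2 0.12, limma adjusted p = 0.833). HeT-A{}6256 at X:107843-109755 had 3.40 and 24.6 in H2A.Z KD, against 8.51 and 6.10 in Luc KD, also overlapping. HeT-A{}4800 at X:116487-122492, chosen after its values were seen, had 9.06 and 27.0 in H2A.Z KD, against 0.851 and 1.02 in Luc KD, that is about 1 read in each control library, and was called by limma (log2 3.12, adjusted p = 0.0482). In Ac R29G cells the log2 differences of the HeT-A copies named here lay between -0.84 and 0.73 against the same Luc KD libraries, and none was called.

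The TART elements, the partners of HeT-A at the telomeres, were lower in level. TART-C{}6275, the neighbour of HeT-A{}6276 at 4:1288110-1289098, had 201 and 200 normalised reads in H2A.Z KD cells, against 127 and 92.5 in Luc KD cells, while Ac R29G cells had 78.1 and 75.7. The TART-C family was called by limma only with the block (log2 0.88, adjusted p = 0.0712, with the block 0.000923). TART-B, read on TART-B{}1567 at 4:1274141-1274608, had 18.1 and 25.8 in H2A.Z KD, 4.65 and 10.3 in Ac R29G and 3.41 and 3.05 in Luc KD. Its family just missed the call without the block (H2A.Z KD over Luc KD log2 2.42, SE 0.52, limma adjusted p = 0.05005, with the block 0.000808). TART-A had 14.7 and 16.0 in H2A.Z KD, against 6.8 and 8.1 in Luc KD, and was called in neither fit (log2 0.95, limma adjusted p with the block 0.0946).

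**Figure D2:**
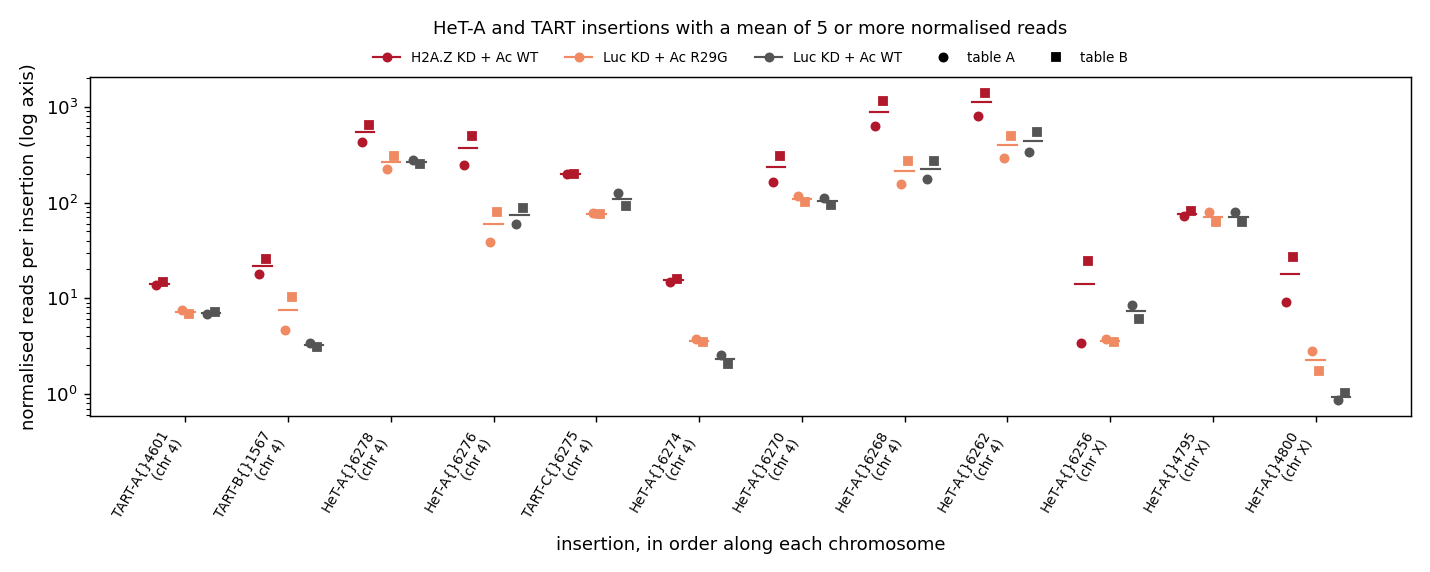
Normalised reads per library (log axis) of single HeT-A and TART copies on chromosome 4 and on X, with H2A.Z KD, Ac R29G and Luc KD libraries as separate points (circles table A, squares table B) and lines at the group means. The H2A.Z KD points of the chromosome 4 copies shown lie above the other groups, as for HeT-A{}6268 at 639 and 1152, while those of HeT-A{}4795 on X overlap them.

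Summed by annotated chromosome, only the insertions of chromosome 4 were called, and HeT-A carried that sum. They had 5418 and 6912 normalised reads in H2A.Z KD cells, 3637 and 3856 in Ac R29G cells and 3896 and 3900 in Luc KD cells (H2A.Z KD over Luc KD log2 0.65, SE 0.12, limma adjusted p = 0.0389). The HeT-A copies of the chromosome made up 2313 and 4046 of these in H2A.Z KD, against 978 and 1258 in Luc KD. All its other insertions together had 3104 and 2866 in H2A.Z KD, against 2918 and 2642 in Luc KD, so without HeT-A the groups overlapped. The other chromosomes had log2 differences between 0.15 and 0.36 and were not called. Over all features of this fit 2.57% were called higher. With the block, limma called 6 of the chromosomes, all but Y, where 19.2% of all features were called higher. The chromosome 4 call without the block was lost when values were scaled by total gene reads or by quantiles, without the intensity trend, and when any library but the H2A.Z KD library of table A was left out.

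The DNA transposon pogo was the second family to rise. It had 2725 and 3548 normalised reads in H2A.Z KD cells, 1794 and 1927 in Ac R29G cells and 1602 and 1965 in Luc KD cells, with both H2A.Z KD libraries above all others. The means were 3136 ± 582 in H2A.Z KD and 1783 ± 256 in Luc KD (SD, n = 2 each), 1.76-fold higher (log2 0.81, SE 0.15, limma adjusted p = 0.0401, with the block 5.22e-07). Most of the reads were counted on pogo{}4759, which had 2639 and 3433 in H2A.Z KD, against 1556 and 1868 in Luc KD (limma adjusted p = 0.0381). This copy is annotated in an intron of the histone pseudogene His-Psi:CR33867, in the region of the histone gene repeats. The pseudogene itself had 0 and 1.23 normalised reads in H2A.Z KD, against 0 and 3.05 in Luc KD.

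Doc2, a non-LTR retrotransposon with 7 copies, 6 of them with a read, was the family that fell. It had 299 and 278 normalised reads in H2A.Z KD cells, 476 and 519 in Ac R29G cells and 543 and 490 in Luc KD cells, so that both H2A.Z KD libraries lay below the other 4. The means were 288 ± 15 in H2A.Z KD and 517 ± 37.5 in Luc KD (SD, n = 2 each), a ratio of 0.558 (log2 -0.84, SE 0.13, limma adjusted p = 0.0276, with the block 1.58e-05). A pair of copies held most of the reads. Doc2{}5179 at 2R:4732913-4735934, outside genes, had 134 and 124 in H2A.Z KD, against 273 and 251 in Luc KD (log2 -1.02, SE 0.16, limma adjusted p = 0.0286). Doc2{}4272 at 2R:4552596-4557314, in an intron of Stlk on the same strand, had 165 and 152 in H2A.Z KD, against 267 and 234 in Luc KD (log2 -0.65, limma adjusted p = 0.0745, with the block 0.00125). Stlk itself had 437 and 483 in H2A.Z KD, against 635 and 719 in Luc KD (log2 -0.55, limma adjusted p = 0.0545, with the block 1.33e-04), as its intronic copy did. Doc2{}5179 was named after its values were seen.

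These 3 families, HeT-A, pogo and Doc2, were the ones called by limma without the block, 2 higher and 1 lower of 121 families. Over all 12065 features of that fit 2.54% were called higher and 2.01% lower, 4.55% together, so the families were called no more often than features at large. At an unadjusted p under 0.05 there were 15 of the 121 families, beside 3008 of the 12065 features. Leaving out any 1 of the 6 libraries, Ac R29G ones included, left 0 families called in this fit. With the block, limma called 23 families higher and 2 lower. Over all features 19.1% were then called higher and 18.1% lower, while 19% of families were called higher and 1.65% lower: the share of families that rose was that of all features, and the share that fell was smaller.

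Families leaned upwards as a body. Of 121, 88 had a positive log2 difference (72.7%), with a median of 0.19, beside a median of 0.00 over all features. In 46 families (38.0%) both H2A.Z KD libraries exceeded both Luc KD libraries, and in 8 (6.61%) both were lower, while over all features the shares were 26.1% and 26%. This lean depended on the scaling: dividing by total gene reads moved the median of all features to -0.18 and that of the families to 0.00, with 62 of 121 positive, so the families stayed 0.18 above the features at large but were no longer raised in level. All insertions together had 95612 and 90197 normalised reads in H2A.Z KD cells, against 79108 and 71291 in Luc KD cells, and were called by limma only with the block (log2 0.31, SE 0.12, adjusted p = 0.168, with the block 0.000263). By class, the same held for LTR retrotransposons (log2 0.30, limma adjusted p = 0.178, with the block 0.000282), non-LTR retrotransposons (log2 0.40, limma adjusted p = 0.0704, with the block 0.000163) and DNA transposons (log2 0.38, limma adjusted p = 0.0643, with the block 4.87e-05). Of all features, 2.56% were called higher in this fit without the block and 19.2% with it. INE-1 was called in neither fit, at 5114 and 4779 in H2A.Z KD, against 4913 and 4534 in Luc KD (log2 0.07, limma adjusted p = 0.682, with the block 0.388), and its sign turned under total-read and quantile scaling.

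**Figure D3:**
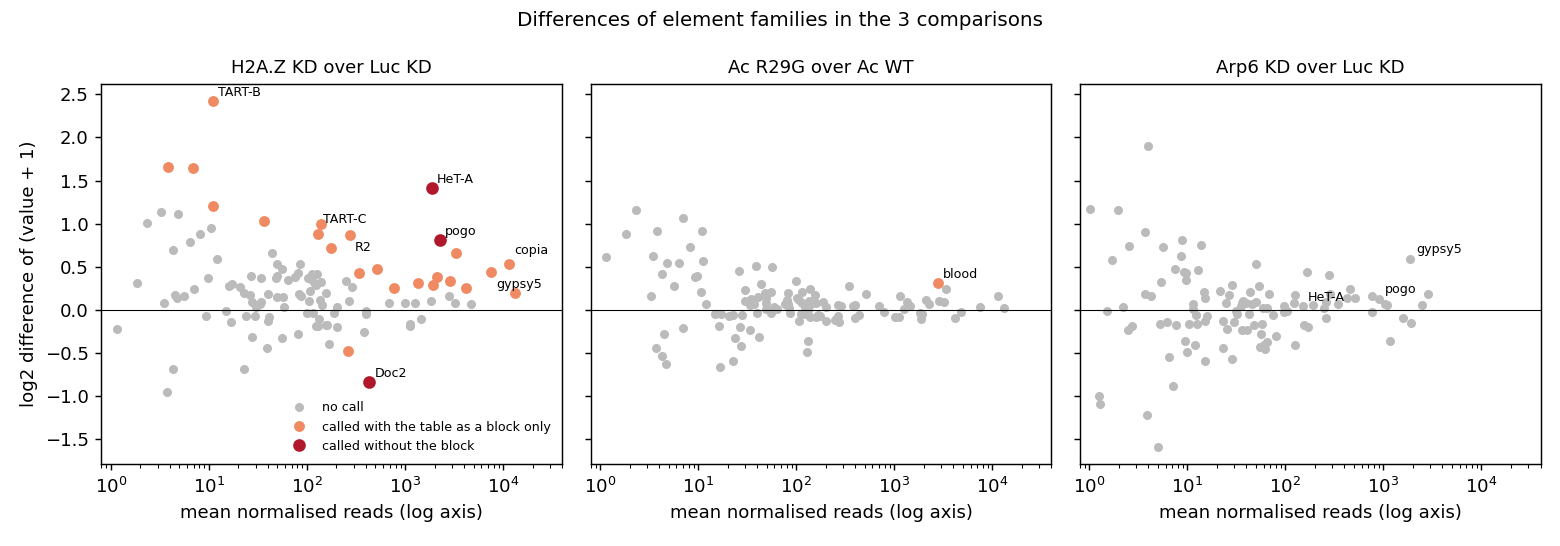
Log2 difference of each element family against its mean normalised reads (log axis), for H2A.Z KD over Luc KD, Ac R29G over Ac WT and Arp6 KD over Luc KD in separate panels, with families called by limma without the block and only with it marked apart. In the H2A.Z KD panel HeT-A (1.41) and pogo (0.81) stand above 0 and Doc2 (-0.84) below, and in the other panels no family is called without the block.

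Among the LTR retrotransposons, limma called no family sum without the block, and the family increases named here were called by limma only within tables; DESeq2 without the block also called copia, 17.6, roo and flea higher. The family copia had 12144 and 15536 normalised reads in H2A.Z KD cells, against 8339 and 10893 in Luc KD cells, without overlap (log2 0.53, SE 0.18, limma adjusted p = 0.131, with the block 1.74e-06). For 17.6 the values were 4646 and 3718 in H2A.Z KD, against 3313 and 2091 in Luc KD, also without overlap (log2 0.66, limma adjusted p = 0.134, with the block 9.36e-06). For gypsy5 they were 10676 and 7502 in H2A.Z KD, against 8330 and 5238 in Luc KD, and here the B library of the knockdown lay below the A library of the control (log2 0.44, limma adjusted p = 0.362, with the block 2.71e-05). Table A thus held higher 17.6 and gypsy5 values than table B in both groups, and table B higher copia values. The low-level LTR family flea had 189 and 231 in H2A.Z KD, against 83.4 and 131 in Luc KD (log2 0.99, limma adjusted p = 0.122, with the block 0.000228). The strongest family, 1731, moved little: 14698 and 13704 in H2A.Z KD, against 12288 and 12550 in Luc KD (log2 0.19, limma adjusted p with the block 0.0143), and its difference was just below 0 under total-read and quantile scaling. The families roo, 297, Stalker2, 3S18 and micropia were called with the block at log2 differences of 0.38, 0.34, 0.31, 0.29 and 0.47. The low-level families Tom1, gypsy9 and gypsy11 were called by limma with the block too, at between 5.66 and 18.4 normalised reads in H2A.Z KD and between 0.851 and 9.15 in Luc KD. With the block edgeR did not call these families, and DESeq2 gave them no adjusted p.

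Other LTR families with many reads did not move beyond their spread in either limma fit. Tirant differed by a log2 of 0.08, blood by 0.15, mdg1 by 0.11, gypsy12 by -0.11, diver by -0.19 and Idefix by 0.08. The DNA transposon 1360 differed by 0.08 and the non-LTR element F by -0.17. Of these, Tirant, blood, mdg1, 1360 and Idefix changed sign when values were scaled by total gene reads.

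Among non-LTR families outside the telomeres, R2, which inserts into the ribosomal RNA genes, is annotated as 1 copy at X:23220092-23223699. It had 326 and 472 normalised reads in H2A.Z KD cells, against 175 and 263 in Luc KD cells, without overlap (log2 0.87, limma adjusted p = 0.152, with the block 4.38e-05). G6 had 45.3 and 65.2 in H2A.Z KD, against 19.6 and 34.6 in Luc KD (log2 1.03), and DESeq2 with the block did not call it. Doc, Juan, jockey and G5A had log2 differences of 0.26, 0.26, 0.43 and 0.72, and all of these were called by limma only with the block (Juan, jockey and G5A, like micropia above, were chosen after their values were seen). The one family besides Doc2 called lower with the block was invader1, an LTR element, at 199 and 228 in H2A.Z KD, against 280 and 316 in Luc KD (log2 -0.48, limma adjusted p = 0.134, with the block 0.00459).

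At the level of single insertions, limma without the block called 7 higher and 1 lower of 1747, where all 13691 features gave 2.1% higher and 1.61% lower. An unadjusted p under 0.05 was found for 120 of the 1747 insertions, beside 3134 of the 13691 features. Leaving out any 1 library left 0 called. With the block it called 93 higher and 29 lower, 5.32% and 1.66% of the insertions, where all features gave 16.9% and 15.8%. Only 645 of the 1747 insertions reached a mean of 10, and the part of low levels in these shares was not tested. Besides the copies of HeT-A, pogo and Doc2 described above, the insertions called without the block were an LTR copy each of 17.6 and copia. The copy 17.6{}804 at 2R:10948083-10955576, outside genes, had 3113 and 2522 normalised reads in H2A.Z KD cells, 2145 and 1854 in Ac R29G cells and 1738 and 1223 in Luc KD cells (H2A.Z KD over Luc KD log2 0.94, SE 0.19, limma adjusted p = 0.0447). The copy copia{}466 at 2L:20272782-20277925 had 436 and 550 in H2A.Z KD, 316 and 410 in Ac R29G and 245 and 160 in Luc KD (H2A.Z KD over Luc KD log2 1.30, SE 0.25, limma adjusted p = 0.0408). In both copies the Ac R29G libraries lay between the other groups.

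Some single copies differed far more between tables than their families did. The copy 297{}92 at X:9798578-9805572, in an intron of CARPB on the opposite strand, had 120 and 20.9 normalised reads in H2A.Z KD cells, 131 and 29.2 in Ac R29G cells and 15.3 and 6.10 in Luc KD cells. Its H2A.Z KD difference (log2 2.26) was called by limma only with the block. The flea{}1415 copy on 3R, in an intron of twin on the opposite strand, had 119 and 167 in H2A.Z KD, against 31.5 and 63.0 in Luc KD (log2 1.64), and carried most of its family's change. Among copies called lower with the block were 4 INE-1 copies on the minus strand of 3L between positions 55873 and 78446, named INE-1{}3896, INE-1{}3892, INE-1{}3891 and INE-1{}3889. They had between 1.23 and 13.6 normalised reads in H2A.Z KD cells and between 17.3 and 28.1 in Luc KD cells, with log2 differences of -1.97, -1.73, -1.61 and -1.51. The copy gypsy12{}5500 at 2L:21730765-21733345 had 89.5 and 39.3 in H2A.Z KD, against 186 and 115 in Luc KD (log2 -1.28); it lies inside 297{}518, at 2L:21730008-21737572, which had 191 and 84.8 in H2A.Z KD, against 295 and 202 in Luc KD.

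By genomic context, 2802 insertions lay outside annotated genes, 2388 in introns and 388 overlapped an exon, and these classes held 61.5%, 30.7% and 7.79% of the insertion reads. Of the tested insertions, 761 lay outside genes, 868 in introns and 118 overlapped an exon. Without the block, 6 of the 7 insertions called higher and the 1 called lower lay outside genes. The median log2 difference of tested insertions was 0.24 outside genes, 0.15 in introns and 0.11 in exon overlaps. Of the 43 insertions in genes called higher with the block, 38 had a tested host, of which 15 were called higher as well and 11 were called lower. Of the 17 called lower, 15 had a tested host, 6 called lower and 2 called higher. Over all features of the fit that tested the hosts, 19.1% were called higher and 18.1% lower with the block. The part of host transcription in these insertions was not tested.

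Ac R29G against Ac WT compared the forms of Achaete in Luc KD cells, and shares its Luc KD control libraries with the H2A.Z KD comparison. No family and no insertion was called by limma: 0 of 121 families, with 0 at an unadjusted p under 0.05, and 0 of 1747 insertions, with 27 at an unadjusted p under 0.05. Of all features, 240 of 12065 in the family fit and 272 of 13691 in the insertion fit had such a p. Over all 12065 features of the family fit 0% were called, and edgeR and DESeq2 also called 0 families and 0 insertions without the block. HeT-A, at 925 and 1334 in Ac R29G cells and 1068 and 1328 in Luc KD cells with Ac WT, differed by a log2 of -0.10; pogo differed by 0.07 and 17.6 by 0.24. With the block, limma called 1 family, the LTR retrotransposon blood, beside 0.622% of all features, of which 0.224% were higher. It had 3419 and 2746 normalised reads in Ac R29G cells, against 2635 and 2328 in Ac WT cells, without overlap (log2 0.31, SE 0.15, limma adjusted p with the block 0.0310). The block fit also called 3 insertions higher, where 0.205% of all features were: 297{}92 (log2 2.55), copia{}466 (log2 0.86) and 17.6{}804 (log2 0.45). Their values in every library of the first set are given above, beside those of H2A.Z KD cells.

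Arp6 KD against Luc KD, from the second set, asked the same of the exchange complex, with the limit that the replicate 1 knockdown library held most of its Arp6 reads. Limma called 0 of 111 families, with 8 at an unadjusted p under 0.05, and 0 of 1107 insertions, with 48 at an unadjusted p under 0.05. Of all features, 751 of 10716 in the family fit and 811 of 11712 in the insertion fit had such a p. DESeq2 called 1 family and 1 insertion, beside 16 higher and 1 lower of all features in each fit, and edgeR 0 of both. Over all features limma called 0.0373% in the family fit and 0.0256% in the insertion fit. All insertions together had 23563 and 23630 normalised reads in Arp6 KD cells, against 23277 and 21710 in Luc KD cells (log2 0.07, limma adjusted p = 0.848). The median family difference was 0.04, with 60 of 111 positive, beside a median of -0.01 over all features. In 26 families (23.4%) both Arp6 KD libraries exceeded both Luc KD libraries and in 17 (15.3%) both were lower, beside 18.7% and 20.4% of all features.

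HeT-A, pogo and Doc2, the families called by limma without the block in H2A.Z KD cells, had overlapping ranges in Arp6 KD and Luc KD cells. HeT-A had 143 and 161 normalised reads in Arp6 KD cells, against 147 and 147 in Luc KD cells (log2 0.04, SE 0.13, limma adjusted p = 0.935), and its sign turned under total-read scaling. The element pogo had 876 and 1028 in Arp6 KD, against 880 and 856 in Luc KD (log2 0.13, limma adjusted p = 0.740), and Doc2 had 122 and 168 in Arp6 KD, against 164 and 161 in Luc KD (log2 -0.18). R2 had 85.7 and 106 in Arp6 KD, against 93.1 and 100 in Luc KD, and TART-C had 11.2 and 19.9 in Arp6 KD, against 21.2 and 11.7 in Luc KD. The sets were processed apart and differ in depth, so the difference between the H2A.Z KD and Arp6 KD effects was not tested. Across the 111 families tested in both sets, which have separate controls, the log2 differences had a Pearson r of 0.19 and a Spearman rho of 0.29. For the 46 families with a mean of at least 50 these were 0.40 and 0.44, as a description across families that share libraries.

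Among the 46 families with a mean of at least 50 in both sets, gypsy5 had the largest log2 difference in Arp6 KD cells, a family described here after its values were seen. It had 2372 and 2154 normalised reads in Arp6 KD, against 1684 and 1329 in Luc KD, without overlap (log2 0.60, SE 0.11, limma adjusted p = 0.304, with the replicate number as a block 0.097). DESeq2 without the block called it on the recovered reads (adjusted p = 0.000805), the 1 call in 13 other settings. With the block DESeq2 called 0 of 111 families, and edgeR called 0 with and without it. The copia family had 3113 and 3015 in Arp6 KD, against 2681 and 2709 in Luc KD (log2 0.19, limma adjusted p = 0.650), 17.6 had 828 and 779 in Arp6 KD, against 744 and 692 in Luc KD (log2 0.16), and 3S18 had 379 and 257 in Arp6 KD, against 260 and 215 in Luc KD (log2 0.40). Tirant ran the other way, at 1051 and 982 in Arp6 KD, against 1435 and 1182 in Luc KD (log2 -0.36, limma adjusted p = 0.590), and its sign turned when only copies outside genes were summed. Summed by chromosome, insertions on X, where gypsy5{}103 lies, had 4431 and 4070 in Arp6 KD, against 3631 and 3201 in Luc KD (log2 0.32, SE 0.08, limma adjusted p = 0.582).

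Single copies of the LTR retrotransposon 297 could move by more than 10 times between replicates of 1 group while the family sum did not. The copy 297{}897 at 3L:402740-409735 had 18.4 and 310 normalised reads in Arp6 KD, against 313 and 273 in Luc KD. The copy 297{}1269 at 3R:8868850-8872636, in an intron of pyd, had 28.6 and 25.5 in Arp6 KD, against 36.0 and 382 in Luc KD. The 297 family as a whole had 1679 and 1947 in Arp6 KD, against 2110 and 1929 in Luc KD. Over features with a mean of at least 50, the median absolute log2 difference between the Luc KD libraries of the first set was 0.45 for 195 insertions, 0.32 for 71 families and 0.18 for 7560 genes. In the second set it was 0.13 for 62 insertions, 0.13 for 46 families and 0.09 for 6765 genes. The largest difference of an insertion between replicates was 4.97 on the log2 scale in the first set and 3.37 in the second.

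**Figure D4:**
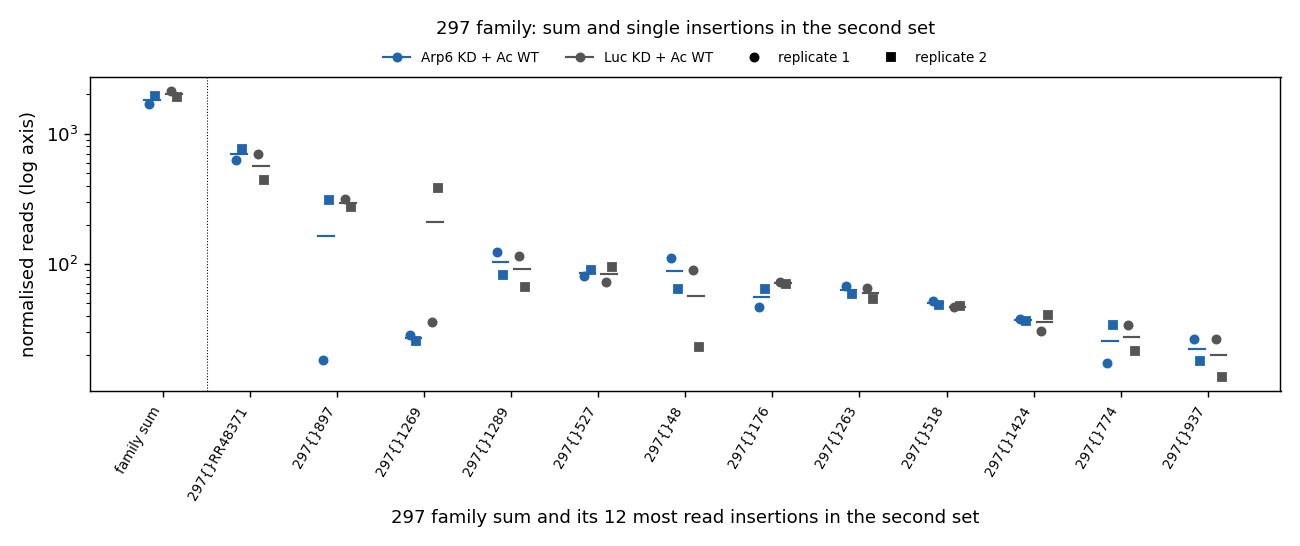
Normalised reads per library (log axis) of the 297 family sum and of its 12 copies with the most reads in the second set, with Arp6 KD and Luc KD libraries as separate points (circles replicate 1, squares replicate 2) and lines at the group means. Copies such as 297{}897 and 297{}1269 have 1 library more than 10 times away from others of the same group, 18.4 beside 310 and 382 beside 36.0.

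Genes of the silencing pathways were read from lists of known members. The small interfering RNA list, of which 6 of 7 genes were tested, had 0 genes called in H2A.Z KD cells in either limma fit, 0 at an unadjusted p under 0.05 and 0 by edgeR or DESeq2. AGO2, the slicer of this pathway, had 11928 and 11510 normalised reads in H2A.Z KD, against 11669 and 11169 in Luc KD (log2 0.04), and Dcr-2, which cuts its small RNAs, had 4941 and 5686 in H2A.Z KD, against 5198 and 6124 in Luc KD (log2 -0.09). The piRNA list had 30 tested genes, 4 called higher and 2 lower without the block and 7 higher and 13 lower with it, and a median log2 difference of -0.24. Over all features 2.54% were called higher and 2.01% lower without the block, and 19.1% and 18.1% with it. An unadjusted limma p under 0.05 without the block was found for 15 of these 30 genes, beside 3008 of 12065 features. Without the block edgeR called 6 genes of this list, beside 299 higher and 225 lower of all features. DESeq2 called 11, beside 785 higher and 667 lower. Of its Argonaute proteins, piwi rose to 198 and 355 in H2A.Z KD, against 41.7 and 45.8 in Luc KD (log2 2.58, limma adjusted p = 0.0188), and aub fell to 1151 and 846 in H2A.Z KD, against 2352 and 2608 in Luc KD (log2 -1.33, limma adjusted p = 0.0188). The helicase gene vas rose to 177 and 275 in H2A.Z KD, against 28.9 and 39.7 in Luc KD (log2 2.67), papi and shu rose by 0.61 and 0.56 on the log2 scale, and mael fell to 642 and 511 in H2A.Z KD, against 1236 and 1141 in Luc KD (log2 -1.05). Of the 11 tested genes of the transposon chromatin list, 0 were called by limma without the block, 2 had an unadjusted p under 0.05 and edgeR and DESeq2 called 0; with the block 4 were higher (the HP1a gene at log2 0.20, G9a at 0.24, CoRest at 0.16 and HP4 at 0.22) and 1 lower (egg, an H3K9 methyltransferase gene, at -0.26). In the microRNA list, which served as a comparison, Dcr-1 (log2 -0.70) and drosha (log2 -0.61) were lower by limma. In Ac R29G and Arp6 KD cells 0 of the 52 tested genes of these lists were called by limma, edgeR or DESeq2 without the block, with 0 and 6 of them at an unadjusted limma p under 0.05. Of all features, 240 of 12065 for Ac R29G and 751 of 10716 for Arp6 KD had such a p. In the first set the small RNA helicase gene armi had at most 0.860 normalised reads in any library and the chromatin gene SuUR had 0 in all 6; whether reads of these genes were counted at all is not known, so no level is read from these values. The genes nxf3, trim, nbr, Lsd1 and His1 were not matched by symbol.

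The authors' deposited table of H2A.Z KD against Luc KD lists 2748 insertions, of which 328 have an adjusted p in that table. Of these, 19 (5.79%) had one under 0.05, 17 higher and 2 lower, where 17.2% of the 8518 features of the table with an adjusted p did. The 17 include 5 HeT-A copies of chromosome 4, TART-C{}6275, R2, pogo{}4759, 17.6{}804, flea{}1415 and 297{}92, and the 2 lower ones are Doc2{}5179 and Doc2{}4272. The authors' deposited table of Ac WT over Ac R29G has 0 insertions at an adjusted p under 0.05, where 0.0544% of its features are. These tables were made from the same libraries as the comparisons above.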

How the data were processed

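RNA was measured by sequencing in 10 libraries of S2 cells. Either an MGIEasy or a TruSeq kit was used for each library per the labels' protocols, and which one is unknown (not given in the sources used here). Per the submitters' processing notes, Partek and the BDGP6 genome were used. The aligner, the counter and the treatment of reads with several matches are unknown (not given in the sources used here). The deposited per-library values are a signal: read counts that the authors divided by 1 size factor per library. Because 100% of these values were whole multiples of 1 step per library within 0.001 reads, whole reads were recovered. The authors' deposited comparison tables give for each feature its mean signal and log2 fold change, the error of that change, a score, and raw and adjusted p-values, in columns named as by DESeq2, per the file headers.

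The 2 tables of the first set were rescaled together by median-of-ratios factors computed on genes, and the second set kept its deposited scaling. Families were named from the BDGP6 annotation and classes assigned from textbook knowledge, then reads were summed. The deposited values were not raw counts, so the main test was limma 3.58.1 (R 4.3.3) and its mean-variance trend. It was run on log2 values of the scaled recovered reads after adding 1, for features with a mean of at least 1. Genes and insertions (or their sums) were in 1 fit per set, with Benjamini-Hochberg adjustment over all of them at 0.05. edgeR 4.0.16 and DESeq2 1.42.0 on recovered reads, other scalings, filters, pseudocounts, the block and left-out libraries were the alternatives. Columns of the first set carry no replicate number; libraries of 1 table deviated together (correlations of 0.576, 0.622 and 0.646 over 9106 genes), so the table was read as pairing them and blocked values stand beside the results. On simulated counts the test without the block recovered 44% of 1.5-fold, 86% of 2-fold and 100% of 4-fold changes for H2A.Z KD (12065 features), and 30%, 82% and 100% for Arp6 KD (10716 features). These counts had a fixed spread for all features and no difference between tables or replicates, and the changed features had a mean of at least 10. Recovery in the real libraries, which do differ by table, can be lower and was not measured.

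Named families were the 20 with the highest mean and up to 10 called per direction; named insertions were the 15 with the highest mean and up to 8 called per direction with a mean of at least 10, changed the same way in both tables or replicates. All families and copies named outside this rule were chosen after their values were seen: TART-A, micropia, Juan, jockey and G5A, further copies of HeT-A, TART-C, Doc2, R2, copia, mdg3 and 297, and families named for Ac R29G and Arp6 KD beyond it. The members and lists were chosen with earlier results of these data known.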

Additional observations from a re-analysis of the deposited data

Results flagged for a closer look

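In the authors' deposited tables of comparisons, 23 insertions are listed with a mean signal above 0 although none of the 6 libraries of the first set has a read on them. The mean signal of these insertions in the authors' deposited tables was at most 0.463. They were noticed because they are a signal in columns that the comparisons of libraries do not use, and their origin was not tested.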

How the results depend on the processing

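Pairing libraries by the replicate block changed most counts. Class counts here and below include the sum of all insertions as a feature. For H2A.Z KD against Luc KD, limma with the block called 25 families (3 without), 122 insertions (8 without), 4 class sums (0 without) and 6 chromosomes (1 without). The 4 were the DNA, LTR and non-LTR sums and that of all insertions. edgeR with the block called 26, 124, 4 and 6, DESeq2 without it 8, 19, 3 and 3, and DESeq2 with it 19, 46, 4 and 6. In the same order, these called 2331, 785 and 1854 higher and 2181, 667 and 1483 lower of all 12065 features of the family fit. Of the 13691 features of the insertion fit they called 2369, 766 and 1869 higher and 2172, 629 and 1474 lower. For Ac R29G the block gave 1 family and 3 insertions (0 without), edgeR with it 1 and 11, and DESeq2 with it 1 and 2. Of all features of the Ac R29G family fit, edgeR with the block called 41 higher and 95 lower, and DESeq2 with it 15 and 31. In the insertion fit these were 54 and 108 for edgeR and 14 and 27 for DESeq2. For Arp6 KD, where same-numbered libraries correlated at 0.50 over 7976 genes but form only 2 pairs, DESeq2 called 1 family and 1 insertion, and with the block 1 chromosome. Of all features, DESeq2 called 16 higher and 1 lower in both the family and the insertion fit. In the chromosome fit with the block it called 52 higher and 6 lower. In H2A.Z KD the count with no filter on low values was 0 families and 41 insertions (44 insertions for Ac R29G), without the trend 0 families, 0 insertions and 0 chromosomes, and TMM and quantile scaling gave 5 insertions each. Total-read and quantile scaling gave 0 chromosomes.

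Leaving out 1 library at a time, with and without the block, gave 0 to 29 families, 0 to 170 insertions, 0 to 5 classes and 0 to 6 chromosomes for H2A.Z KD. It gave 0 to 2 families and 0 to 21 insertions for Ac R29G, and 0 to 1 insertions for Arp6 KD. The difference in the share of reads on insertions ranged from 0.0161 to 0.0271 percentage points for H2A.Z KD, from -0.00197 to 0.00466 for Ac R29G and from -0.00370 to 0.00650 for Arp6 KD. In the Arp6 KD fit with the block, leaving out a library leaves no residual degrees of freedom, so it gave values with no test.

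Total-read scaling turned the H2A.Z KD log2 differences of 1731 (-0.00368), INE-1 (-0.13), Tirant (-0.11), blood (-0.041), mdg1 (-0.090), 1360 (-0.11), Idefix (-0.12), 1731{}2219 (-0.00228), Tirant{}481 (-0.14), blood{}1369 (-0.069) and gypsy12{}2629 (-0.11), and that of HeT-A in Arp6 KD (-0.017). Quantile scaling turned 1731 (-0.054), INE-1 (-0.062) and 1731{}2219 (-0.047) in H2A.Z KD. Summing only copies outside genes turned Tirant in Arp6 KD (0.055). With 1 library left out, H2A.Z KD differences spanned 0 for Tirant (-0.17 to 0.34), 297 (-0.093 to 0.77), blood (-0.0052 to 0.32), mdg1 (-0.21 to 0.42), diver (-0.58 to 0.21), F (-0.40 to 0.064), Idefix (-0.086 to 0.24), Tirant{}481 (-0.19 to 0.30) and blood{}1369 (-0.053 to 0.31). Ac R29G differences spanned 0 for 17.6 (-0.087 to 0.58), HeT-A (-0.36 to 0.16) and pogo (-0.079 to 0.21), and Arp6 KD differences for HeT-A (-0.042 to 0.13) and pogo (-0.0063 to 0.26). The cause of these changes was not tested.

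In the 14 other settings tried for it, HeT-A in H2A.Z KD kept its direction, with log2 differences from 1.21 to 1.46, and was called in 10. Of 14 such settings each, pogo was called in 9 and Doc2 in 12. With 2 libraries a group, changes can be missed, also those above 2-fold. In H2A.Z KD, limma without the block left TART-B (log2 2.42) and gypsy11 (log2 1.66) uncalled. Single insertions vary more between replicates than genes.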
